A study of Caenorhabditis elegans with 6 samples.

Results

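The genes described here are 10 regulators and enzymes of moulting and of cuticle processing in *C. elegans*, chosen by name from the 46661 genes of the count table. They were the nuclear hormone receptors *nhr-23* (C01H6.5) and *nhr-25* (F11C1.6), the proteases *nas-36* (C26C6.3), *nas-37* (C17G1.6) and *bli-4* (K04F10.4), the protease inhibitors *mlt-11* (W01F3.3) and *bli-5* (F45G2.5), the moulting protein *mlt-10* (C09E8.3), the matrix protein *noah-1* (C34G6.6) and the hedgehog-related gene *qua-1* (T05C12.10). The rule used no expression value, although the genes were chosen with earlier results of these data known. All 10 were among the 15432 genes that passed the filter on low counts. The study compared the transcriptomes of *folr-1(syb4116)* and N2 whole animals, with 3 biological replicates of each strain. The *folr-1(syb4116)* strain is one CRISPR/Cas9 line in which a premature stop codon ends the reading frame of *folr-1*, a folate receptor gene on chromosome X, and it was outcrossed with N2. N2 is the Bristol wild-type strain. Animals of both strains were synchronized by bleaching, plated as L1 larvae at 20 °C on HT115 bacteria with an empty vector as RNAi control, and collected as L4 larvae. The hour of collection within L4 was not given in the sources used here, and the genes below were compared to ask whether the strains stood at a like point of the moult cycle.

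*C. elegans* replaces its collagen cuticle at the end of every larval stage. Most genes that direct moulting or build the cuticle are transcribed in pulses, once in every larval stage, and each gene peaks at its own phase, so their levels depend on the age of the larvae within the stage. Nuclear hormone receptors in the epidermis switch on secreted proteases, protease inhibitors and matrix proteins, and these detach the old cuticle and process the procollagens of the new one.

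The *folr-1* transcript, given first as a check of the labels, was counted 14, 11 and 7 times in *folr-1(syb4116)* libraries and 32, 37 and 59 times in N2 libraries. Every mutant library was thus below every N2 library, and the log2 fold change was -2.02 (SE 0.31, adjusted p = 4.99e-04 by edgeR's quasi-likelihood test, Benjamini-Hochberg adjusted). Total counts ran between 21646678 and 25946226 in *folr-1(syb4116)* libraries and between 21727829 and 24959263 in N2 libraries. Over the whole table, 561 tested genes rose and 512 fell in *folr-1(syb4116)* at an adjusted p under 0.05. The number that rose was 363 when *folr-1(syb4116)* replicate 2 was left out and 372 when its replicate 3 was. Leaving out N2 replicate 2 gave 335 that rose and 337 that fell. Of the markers of the epidermis, the tissue that makes the cuticle, 0 of 5 passed the test (1 at an unadjusted p under 0.05), and their summed level was 346 to 354 CPM (reads on a gene against the TMM-scaled total of its library) in *folr-1(syb4116)* and 347 to 355 CPM in N2. Most of this sum was *ajm-1* (log2 fold change -0.02), so it says little of the other markers. These went both ways, with *che-14* at 0.34 (adjusted p = 0.0565 in the edgeR fit), *lin-26* at 0.10, *elt-3* at -0.10 and *elt-1* at -0.16. Of the 3 tested seam cell markers, of 5 listed, 0 passed (0 also at an unadjusted p under 0.05), and *nhr-73* and *ceh-16* were too low to be tested. Of 5 intestine markers, 2 were higher (*ifb-2* and *act-5*), with sums of 2493 to 2622 CPM in *folr-1(syb4116)* and 2336 to 2467 CPM in N2, but 0 were when *folr-1(syb4116)* replicate 2, its replicate 3 or N2 replicate 1 was left out, and 1 was when N2 replicate 3 was. Of 5 body wall muscle markers, 2 were lower (*unc-54* and *unc-89*), with sums of 7085 to 8076 CPM in *folr-1(syb4116)* and 8935 to 8999 CPM in N2. Of 5 pharynx markers, 2 were lower (*myo-1* and *myo-2*), with sums of 516 to 559 CPM in *folr-1(syb4116)* and 616 to 630 CPM in N2. Over all tested genes 3.64% were higher and 3.32% lower, and 3123 of the 15432 had an unadjusted p under 0.05. The body wall muscle sum was mostly *unc-54*, and the pharynx sum mostly *myo-1* and *myo-2*. Not all these markers fell. The log2 fold change was above 0 for 1 of the 5 body wall muscle markers (*hlh-1*, 0.18). It was also above 0 for 2 of the 5 pharynx markers (*ceh-22*, 0.50, and *pha-4*, 0.04), and none of these passed. Of 5 neuron markers 0 passed (0 also at an unadjusted p under 0.05), and of 5 germline markers 0 passed (1 at an unadjusted p under 0.05). These are whole animals, so fewer cells of a type and less RNA per cell cannot be told apart, and the part of the marker shifts in the values below was not tested.

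The moulting genes differed little between the strains. Among the 10 genes, 1 was higher in *folr-1(syb4116)* (*mlt-10*, by 1.25-fold) and 0 were lower, where 3.64% of all tested genes were higher, 3.32% were lower and 6.95% were called in either direction. At an unadjusted p under 0.05 there were 3 of the 10 (*mlt-10*, *qua-1* and *bli-4*), beside 3123 of the 15432 tested genes. The log2 fold change was above 0 for 7 genes and below 0 for 3. Its median was 0.01 over the 10 genes, beside 0.003 over all tested genes, and its median size without sign was 0.06, beside 0.10 over all tested genes. The sizes are not of like genes. All 10 genes were above 5 CPM, as only 10708 of the tested genes were, and no median size was taken over those. All mutant libraries lay on one side of all N2 libraries in 2 of the 10 genes (*qua-1* and *bli-4*), beside 25.1% of all tested genes.

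**Figure D1:**
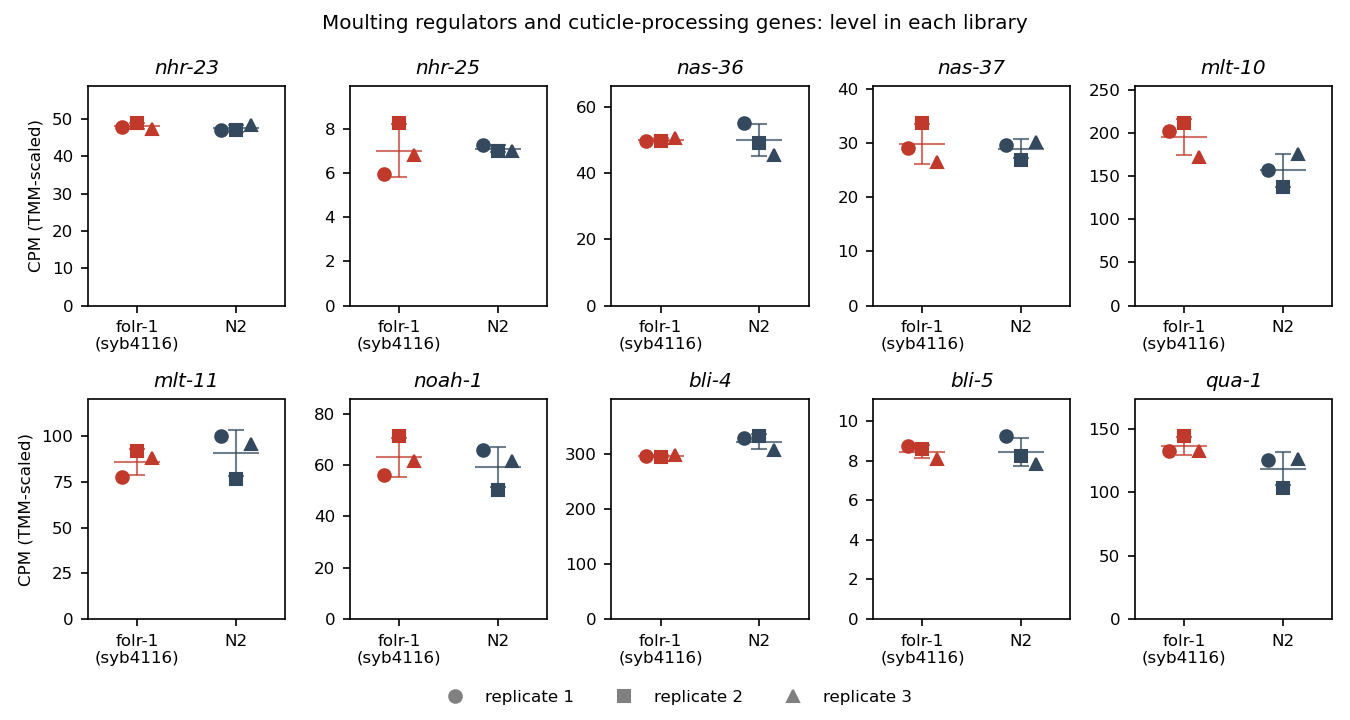
TMM-scaled CPM of the 10 moulting genes in each library of *folr-1(syb4116)* (red, left) and N2 (blue, right), with 1 panel for each gene and its axis starting at 0; the long bar is the mean, the whiskers are the SD (n = 3), and circles, squares and triangles are replicates 1, 2 and 3. In *nhr-23* all libraries lie between 46.9 and 49.0 CPM, while in *mlt-10* the *folr-1(syb4116)* libraries span 172 to 212 CPM and the N2 libraries 138 to 175 CPM.

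The regulators come first. *nhr-23*, the orthologue of the mammalian ROR receptors and a receptor needed for moulting, lies on chromosome I (WBcel235, 7214745 to 7221299, plus strand) and has 6 annotated transcripts. Its level was 47.9, 49.0 and 47.4 CPM in *folr-1(syb4116)* and 47.0, 46.9 and 48.4 CPM in N2. The 6 values were closely spaced and the strains overlapped. The log2 fold change was 0.02 (95% interval -0.08 to 0.12, adjusted p = 0.869 by edgeR's quasi-likelihood test), and the interval was 0.946 to 1.09 on the linear fold scale. *nhr-25*, the orthologue of Drosophila FTZ-F1, also acts in the epidermis and is needed for moulting. It lies on the same chromosome as *folr-1* (chromosome X, 13008493 to 13013964, plus strand), 3087701 bp away. Its level was 5.94, 8.29 and 6.84 CPM in *folr-1(syb4116)* and 7.28, 7.005 and 6.998 CPM in N2. The N2 libraries all fell inside the range of the mutant libraries, whose highest value was 1.39 times the lowest. The difference in log2 was -0.02, and with 147 to 200 counts in each library its 95% interval was wider, -0.29 to 0.26 (adjusted p = 0.963).

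The astacin metalloproteases *nas-36* and *nas-37* are secreted enzymes needed to open and shed the old cuticle. *nas-36* (chromosome I, 7527224 to 7531715, plus strand) was at 49.8, 49.7 and 50.5 CPM in *folr-1(syb4116)* and at 55.2, 48.9 and 45.5 CPM in N2. All mutant libraries lay between the highest and lowest N2 library. This gave a log2 fold change of 0.005 (95% interval -0.12 to 0.13, adjusted p = 0.974). *nas-37* (chromosome X, 9944844 to 9949063, minus strand) is a close neighbour of *folr-1*, 24052 bp away. Its level was 29.0, 33.8 and 26.5 CPM in *folr-1(syb4116)* and 29.7, 26.9 and 30.2 CPM in N2. The highest and the lowest of the 6 values were both from mutant libraries. The log2 fold change was 0.04 (95% interval -0.13 to 0.21, adjusted p = 0.828). Its exons overlap those of C17G1.5 on the opposite strand over 32 bp.

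*bli-4* encodes a subtilisin-like convertase that cleaves procollagens before they are laid down in the cuticle, and it has 11 annotated transcripts (chromosome I, 6342224 to 6356680, plus strand). Its level was 297, 295 and 299 CPM in *folr-1(syb4116)* and 329, 333 and 307 CPM in N2. The mutant libraries were almost equal and all lay below the lowest N2 library. The mean was 297 ± 1.74 CPM in *folr-1(syb4116)* and 323 ± 14.2 CPM in N2 (SD, n = 3 each). The difference in log2 was -0.12 (SE 0.04, 95% interval -0.20 to -0.04), with an unadjusted p of 0.00757 in the edgeR fit and an adjusted p of 0.0813, which did not pass. The exact two-sided permutation test gave p = 0.1, the smallest that 3 against 3 libraries allow. Without N2 replicate 3, the lowest N2 library, the adjusted p was 0.0301 and the log2 fold change -0.16. That library lay nearest the mutant ones, so leaving it out widens the difference by construction. Only this 1 fit with a library left out called *bli-4*. In the others the adjusted p was up to 0.299 and the log2 fold change as small as -0.10. *bli-4* passed in 0 of the 11 alternative fits. Exons of *bli-4* overlap those of K04F10.8 over 150 bp and of *mut-2* over 67 bp on the opposite strand.

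Neither protease inhibitor passed the test. *mlt-11* encodes a large secreted protein with many Kunitz domains (chromosome V, 20667205 to 20678537, plus strand, 3129 amino acids in the longest product) that is needed to complete moulting. Its level was 77.7, 91.8 and 88.1 CPM in *folr-1(syb4116)* and 100.02, 76.7 and 95.9 CPM in N2. N2 libraries gave both the highest and the lowest value, and these differed by 1.30-fold. This gave a log2 fold change of -0.08 (95% interval -0.25 to 0.08, adjusted p = 0.610). *bli-5*, a small Kunitz-domain protein (chromosome III, 13427640 to 13429768, minus strand, 202 amino acids), was at 8.72, 8.58 and 8.09 CPM in *folr-1(syb4116)* and at 9.24, 8.26 and 7.83 CPM in N2. The N2 values enclosed the mutant values. The log2 fold change was 0.007 (95% interval -0.22 to 0.23, adjusted p = 0.980). The exons of *bli-5* overlap those of *cope-1* on the opposite strand over 82 bp of its 747 bp of exons. Whether strand was used in counting is not given in the sources used here, so reads in that stretch could belong to either gene, and *cope-1* was at 94.5 to 97.5 CPM in *folr-1(syb4116)* and 94.3 to 95.9 CPM in N2.

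*mlt-10* had the largest difference among the 10. It encodes a protein made in the epidermis in every moult, and its promoter is often used in reporters of the moult cycle (chromosome II, 546705 to 552032, plus strand). Its level was 203, 212 and 172 CPM in *folr-1(syb4116)* and 158, 138 and 175 CPM in N2. *folr-1(syb4116)* replicate 3 lay just below N2 replicate 3, so the strains overlapped, and the mean was 196 ± 21.1 CPM in *folr-1(syb4116)* and 157 ± 18.9 CPM in N2 (SD, n = 3 each). The difference in log2 was 0.32 (SE 0.08, 95% interval 0.16 to 0.48, adjusted p = 0.0168 by edgeR's quasi-likelihood test, Benjamini-Hochberg adjusted), or 1.25-fold with an interval of 1.11 to 1.40. The exact two-sided permutation test gave p = 0.2. The call was lost without *folr-1(syb4116)* replicate 1 (adjusted p = 0.0711), without *folr-1(syb4116)* replicate 2 (adjusted p = 0.0835) and without N2 replicate 2 (log2 fold change 0.23, adjusted p = 0.0875). It was also lost with DESeq2 (adjusted p = 0.204 with its own size factors). Exons of *mlt-10* overlap those of *lips-7* on the same strand over 109 bp, and *lips-7* had a log2 fold change of 0.16 (adjusted p = 0.184).

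The last pair of genes encodes matrix and signalling-related proteins. *qua-1* (chromosome II, 8198803 to 8204004, plus strand) is a hedgehog-related gene whose product is secreted from the epidermis and is needed for moulting. Its level was 132, 144 and 132 CPM in *folr-1(syb4116)* and 126, 103 and 126 CPM in N2. All mutant libraries were above all N2 libraries, by little against N2 replicates 1 and 3. This gave a log2 fold change of 0.20 (SE 0.06, 95% interval 0.07 to 0.33), with an unadjusted p of 0.00552 and an adjusted p of 0.0667 in the edgeR fit, which did not pass, and the exact permutation test gave p = 0.1. The adjusted p was 0.0461 without N2 replicate 1 and 0.0352 without N2 replicate 3. These were the N2 libraries nearest the mutant ones, so leaving either out widens the difference by construction. Only these 2 fits with a library left out called *qua-1*. In the others the adjusted p was up to 0.273 and the log2 fold change down to 0.11. *noah-1* (chromosome I, 5874416 to 5878958, minus strand) encodes a zona pellucida-domain protein of the apical matrix that holds the epidermis and the cuticle together during a moult. Its level was 56.2, 71.2 and 61.6 CPM in *folr-1(syb4116)* and 65.7, 50.3 and 61.6 CPM in N2. Libraries of the strains were interleaved. The log2 fold change was 0.09 (95% interval -0.09 to 0.27, adjusted p = 0.621).

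**Figure D2:**
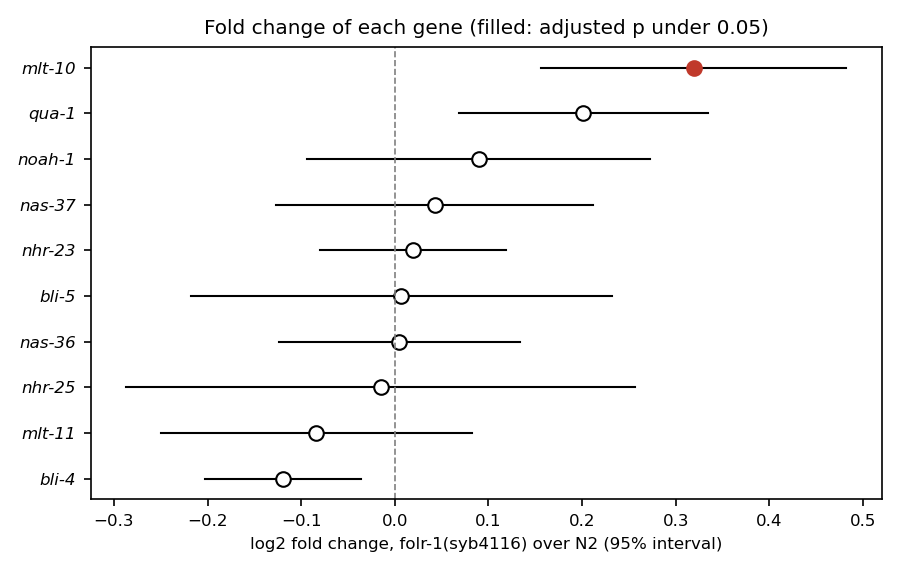
Log2 fold change of each of the 10 genes, *folr-1(syb4116)* over N2, from the edgeR fit (points) with 95% intervals (lines). The interval of *mlt-10*, the 1 filled point, runs from 0.16 to 0.48, the intervals of *qua-1* and *bli-4* lie on opposite sides of 0, and the other 7 intervals include 0.

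Levels of different genes were compared per length, with the deposited FPKM (fragments scaled by gene length and library size). *mlt-10*, at 83.7 ± 9.05 FPKM in *folr-1(syb4116)* and 67.1 ± 8.07 FPKM in N2, and *bli-4*, at 67.0 ± 0.359 FPKM in *folr-1(syb4116)* and 72.9 ± 3.25 FPKM in N2, were the most abundant (SD, n = 3 each). *qua-1* was next, at 35.2 ± 1.81 FPKM in *folr-1(syb4116)* and 30.6 ± 3.41 FPKM in N2. The order was then *nas-36*, *nhr-23*, *noah-1*, *bli-5*, *nas-37*, *mlt-11* and *nhr-25* in both strains. *nhr-25* was lowest, at 2.72 ± 0.462 FPKM in *folr-1(syb4116)* and 2.75 ± 0.0649 FPKM in N2, while *nhr-23* was at 18.6 ± 0.335 FPKM in *folr-1(syb4116)* and 18.4 ± 0.301 FPKM in N2. The order differed between the strains for the first pair only. In *folr-1(syb4116)* all 3 libraries had more *mlt-10* than *bli-4* and the ranges did not overlap, while in N2 *bli-4* was above *mlt-10* in 2 of 3 libraries and the ranges overlapped. Other neighbours whose ranges overlapped were *nhr-23* and *noah-1* and then *bli-5* and *nas-37* in *folr-1(syb4116)*, and *noah-1* and *bli-5* in N2. FPKM rests on the gene lengths the authors used, and transcripts of *nhr-23* or *bli-4* were not separated.

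**Figure D3:**
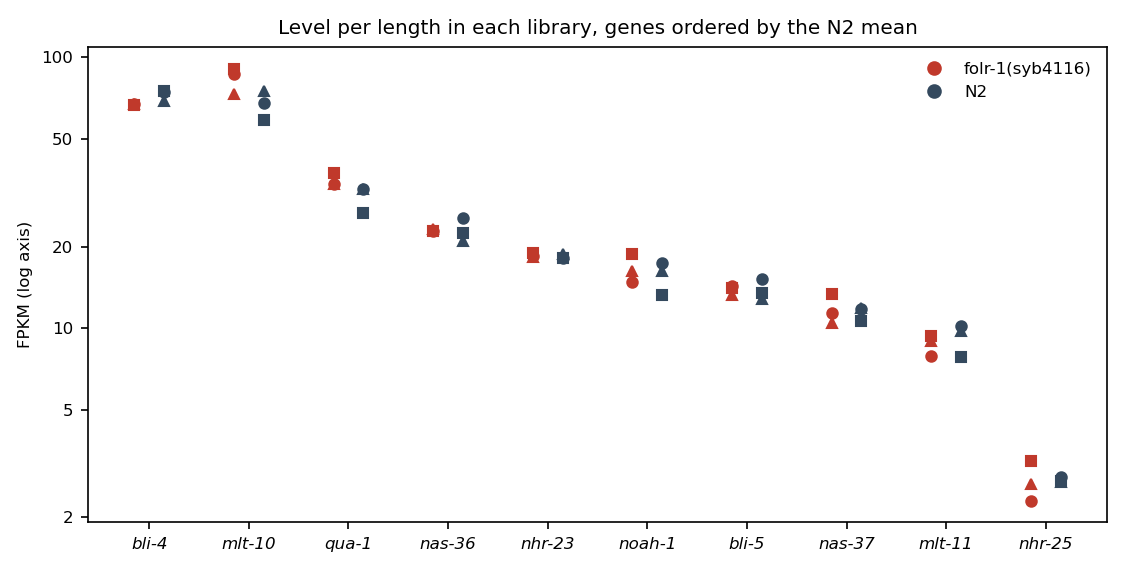
Deposited FPKM (log axis) of the 10 genes in each *folr-1(syb4116)* library (red, left of each pair) and N2 library (blue, right), ordered by the N2 mean; circles, squares and triangles are replicates 1, 2 and 3. *bli-4* and *mlt-10* lead in both strains, and *nhr-25* is lowest with 2.30 to 3.22 FPKM in *folr-1(syb4116)* and 2.71 to 2.83 FPKM in N2.

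The libraries of one strain differed from each other in these genes. *folr-1(syb4116)* replicate 2 was the highest of its strain for 7 of the 10 genes and above the strain mean for 8, while replicates 1 and 3 were above it for 3 each. N2 replicate 2 was the lowest of its strain for 6 of the 10 genes and above the strain mean for 1, while N2 replicates 1 and 3 were above it for 9 and 6. The median deviation from the strain mean, in log2 CPM, was -0.02, 0.09 and -0.03 in *folr-1(syb4116)* replicates 1 to 3 and 0.07, -0.07 and 0.05 in N2 replicates 1 to 3. Over all tested genes it was within 0.002 of 0 in each library, where the scaling and the centring hold it. It therefore does not show how far a median of 10 genes would stray. Of the 15432 tested genes, 7808 were above the strain mean in *folr-1(syb4116)* replicate 2 and 7867 in N2 replicate 2. In *folr-1(syb4116)* replicate 2, *nhr-25* deviated by 0.25, *nas-37* by 0.19 and *noah-1* by 0.18. In N2 replicate 2, *mlt-11* deviated by -0.23, *noah-1* by -0.22, *qua-1* by -0.19 and *mlt-10* by -0.18. Not all genes took part, since *nhr-23* stayed within 0.03 of its strain mean in all 6 libraries and *bli-4* within 0.01 in *folr-1(syb4116)*. The median SD within a strain was 0.13 in log2 CPM over the 10 genes, beside 0.11 over all tested genes and 0.08 over those of at least 5 CPM, and *nhr-25*, *mlt-10*, *mlt-11* and *noah-1* were between 0.17 and 0.19. The strain difference was smaller than the gene's own SD within a strain for every gene of the 10 but *mlt-10*, *qua-1* and *bli-4*.

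The same libraries stood apart in other genes that pulse with the moult. Of 6 collagens made early in a moult cycle (*dpy-2*, *dpy-3*, *dpy-7*, *dpy-8*, *dpy-9* and *dpy-10*), 5 were above the strain mean in *folr-1(syb4116)* replicate 2 and 0 in N2 replicate 2, against 6 in each of N2 replicates 1 and 3. Their summed level was 115.2, 129 and 118.5 CPM in *folr-1(syb4116)* replicates 1 to 3 and 125, 93.1 and 124 CPM in N2 replicates 1 to 3. *dpy-10*, a collagen of the cuticle furrows, was at 17.8, 21.2 and 18.6 CPM in *folr-1(syb4116)* and at 20.7, 14.4 and 20.3 CPM in N2. N2 replicate 2 was the low library in each of these sums and levels. Of 11 other secreted and apical matrix proteins, 10 were above the strain mean in *folr-1(syb4116)* replicate 2 and 1 in N2 replicate 2. Of 11 genes that switch on towards adulthood (adult collagens and vitellogenins), 2 were above the strain mean in *folr-1(syb4116)* replicate 2 and 9 in N2 replicate 2. Those 9 thus ran the other way round from the moulting genes. The 2 exceptions were the adult collagens *bli-1* and *bli-2*, which ran with the moulting genes in both libraries. *bli-1* was at 133, 149 and 136 CPM in *folr-1(syb4116)* and at 131, 96.0 and 124.5 CPM in N2. Over the 11 adult-onset genes N2 replicate 3 lay further from its strain mean than N2 replicate 2 did, with a median deviation of -0.15 beside 0.12 and 3 of the 11 above the mean. *vit-6*, a yolk protein gene, was at 6118, 5589 and 6220 CPM in *folr-1(syb4116)* and at 6060, 6452 and 5263 CPM in N2. The genes outside the lists whose profile over the 6 libraries was most like the mean profile of the moulting genes were *dep-1*, *rege-1*, *zig-1*, *col-104* and *col-14*, with a root mean square difference of 0.0157 to 0.0225 in log2 CPM, beside a median of 0.111 over 10610 genes of at least 5 CPM. As they were picked for the smallest differences, they lie below the median by selection. The mean profile itself spanned 0.24 in log2 CPM. Some tissue markers were uneven in the replicate 2 libraries too. In *folr-1(syb4116)* replicate 2, 5 of 5 intestine, 4 of 5 muscle and 3 of 3 seam cell markers were above the strain mean. Of germline markers 3 of 5 were, and of epidermis, pharynx and neuron markers 2 of 5 each. In N2 replicate 2, 5 of 5 germline, 4 of 5 neuron, 3 of 5 intestine and 3 of 5 muscle markers were. Of seam cell markers 2 of 3 were, and of epidermis and pharynx markers 2 of 5 each.

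**Figure D4:**
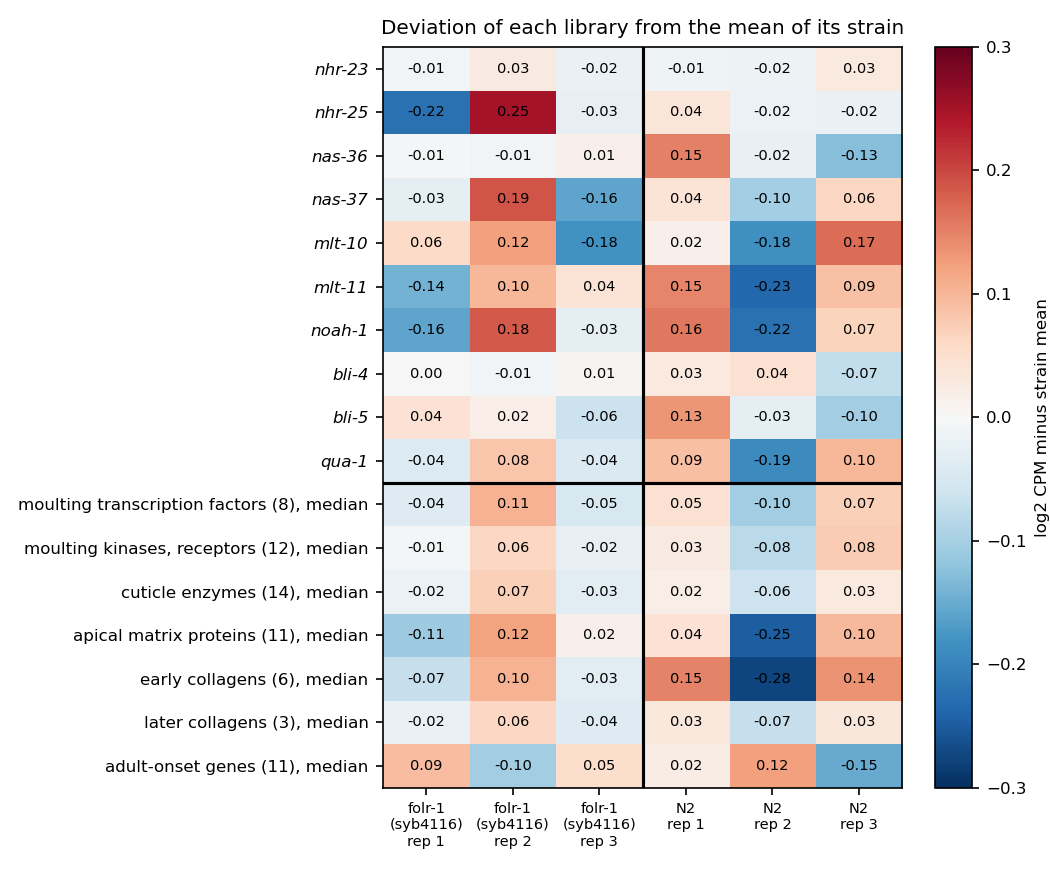
Deviation of each library from the mean of its strain in log2 CPM, for the 10 moulting genes and as medians for 7 further lists (number of genes in brackets), with *folr-1(syb4116)* left and N2 right of the line. For the early collagens *folr-1(syb4116)* replicate 2 is at 0.10 and N2 replicate 2 at -0.28, and for the adult-onset genes *folr-1(syb4116)* replicate 2 is at -0.10 and N2 replicate 2 at 0.12.

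With *folr-1(syb4116)* replicate 2 and N2 replicate 2 both left out, a choice made after these values had been seen, the comparison of the strains moved. Since these libraries were picked for being high and low in the moulting genes, leaving them out lowers the fold changes by construction. Then 2 of the 10 log2 fold changes were above 0 in place of 7, and their median was -0.05. *mlt-10* had a log2 fold change of 0.17 (adjusted p = 0.239 by edgeR's quasi-likelihood test) and *qua-1* of 0.07, and neither passed. *mlt-11* had a log2 fold change of -0.24 (adjusted p = 0.0369) and was the 1 gene called lower. *nhr-23* had a log2 fold change of -0.003. With 1 library left out, the number above 0 was 7, 4 and 7 for *folr-1(syb4116)* replicates 1 to 3 and 8, 3 and 5 for N2 replicates 1 to 3. It thus moved with single libraries, and the labels give no batch or collection time with which to set the libraries apart.

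In 7 further lists of pathway genes, which like the 10 genes were compiled with earlier results known, 12 of 65 tested genes were called, 8 higher and 4 lower, or 18.5% beside 6.95% of all tested genes, as a description with no test. Of 8 other transcription factors and clock genes of moulting, 1 was higher and 0 lower (12.5% called). At an unadjusted p under 0.05 there were 3 of them, beside 3123 of the 15432 tested genes. The median log2 fold change of this list was 0.06. The gene called was *lin-42*, the orthologue of the circadian gene Period, at 135, 146 and 131 CPM in *folr-1(syb4116)* and 119.1, 111 and 125 CPM in N2 (log2 fold change 0.21, adjusted p = 0.0123 in the edgeR fit). All mutant libraries were above all N2 libraries, but the call was lost without *folr-1(syb4116)* replicate 2 or N2 replicate 2, with adjusted p-values up to 0.0837. The myelin regulatory factors *myrf-2* and *myrf-1* had log2 fold changes of 0.11 and 0.05 and the zinc finger factor *blmp-1* of 0.06, none past the test. The largest log2 fold change of this list was that of *bed-3*, another zinc finger factor, named after its values were seen, at 37.3, 48.4 and 38.8 CPM in *folr-1(syb4116)* and 33.2, 31.1 and 37.2 CPM in N2. All mutant libraries were above all N2 libraries, narrowly for the nearest pair, and the log2 fold change of 0.29 did not pass (adjusted p = 0.0549). Of 12 kinases, trafficking proteins and receptors, 0 passed in the edgeR fit (1 at an unadjusted p under 0.05), with a median of 0.04. Among these, *apl-1*, which encodes the worm's amyloid precursor-like protein, was at 329 to 344 CPM in *folr-1(syb4116)* and 327 to 336 CPM in N2.

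Of 14 other enzymes that process or crosslink the cuticle, 3 were higher and 1 lower (28.6% called, beside 6.95% of all tested genes), with a median log2 fold change of -0.01. The highest was *cpl-1*, a cathepsin L protease needed for moulting, at 961, 1036 and 944 CPM in *folr-1(syb4116)* and 737.5, 701 and 739 CPM in N2 (log2 fold change 0.43, adjusted p = 2.83e-06 by edgeR's quasi-likelihood test). *cpz-1*, a cathepsin Z, rose with a log2 fold change of 0.25 (adjusted p = 0.00294), and the thioredoxin-like *dpy-11* with 0.18 (adjusted p = 0.0293). *mlt-7*, a haem peroxidase that crosslinks the cuticle, was at 126, 119.02 and 128 CPM in *folr-1(syb4116)* and 157, 157 and 150 CPM in N2 (log2 fold change -0.31, adjusted p = 1.40e-04). These 4 enzymes, already picked by their adjusted p, had no overlap between mutant and N2 libraries, beside 25.1% of all tested genes. The uncalled *tsp-15* of the same list had no overlap either. The calls of *cpl-1*, *cpz-1* and *mlt-7* held with any 1 library left out, and that of *dpy-11* was lost without *folr-1(syb4116)* replicate 2, N2 replicate 1 or N2 replicate 2 (adjusted p up to 0.161). The procollagen-modifying enzymes *pdi-2* and *dpy-18* and the dual oxidase *bli-3* had log2 fold changes of 0.03, -0.03 and -0.05 and did not pass.

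Of the 11 other secreted and matrix proteins, 0 were higher and 1 lower (9.09% called, beside 6.95% of all tested genes). Their median log2 fold change was 0.05. The lower one was the fibrillin *fbn-1*, at 11.5, 15.5 and 13.5 CPM in *folr-1(syb4116)* and 18.03, 15.1 and 21.3 CPM in N2 (log2 fold change -0.44, adjusted p = 0.0385 in the edgeR fit). The strains overlapped, and the call was lost without *folr-1(syb4116)* replicate 1 or 3 or N2 replicate 1 or 3 (adjusted p up to 0.179). Of the 6 early collagens 0 passed (0 also at an unadjusted p under 0.05), although all 6 had a log2 fold change above 0, with a median of 0.05. Of 3 collagens made later in a cycle, *dpy-5* was at 1404, 1500 and 1367 CPM in *folr-1(syb4116)* and 1189, 1074 and 1163 CPM in N2 (log2 fold change 0.32, adjusted p = 1.76e-04), and *dpy-13* was also higher (0.21, adjusted p = 0.00241). Both calls held with any 1 library left out. *col-12* was lower (-0.12, adjusted p = 0.0449), but the call was lost with any 1 library left out (adjusted p up to 0.144). In the edgeR fit with all libraries 100% of these 3 collagens were thus called, beside 6.95% of all tested genes. Of the 11 adult-onset genes, 2 were higher (*bli-2*, 0.29, adjusted p = 0.0273, and *vit-3*, 0.23, adjusted p = 0.0310) and 1 lower (*col-62*, -0.22, adjusted p = 0.0271). The share called was 27.3%, beside 6.95% of all tested genes, and the median log2 fold change of the 11 was 0.02. *bli-2* stayed called with 1 of the 6 libraries left out, *vit-3* with 2 and *col-62* with 4, and the highest adjusted p-values were 0.108, 0.136 and 0.123. The most abundant of these genes, *vit-6*, *vit-2* and *vit-5*, had log2 fold changes of 0.01, 0.02 and -0.01.

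**Figure D5:**
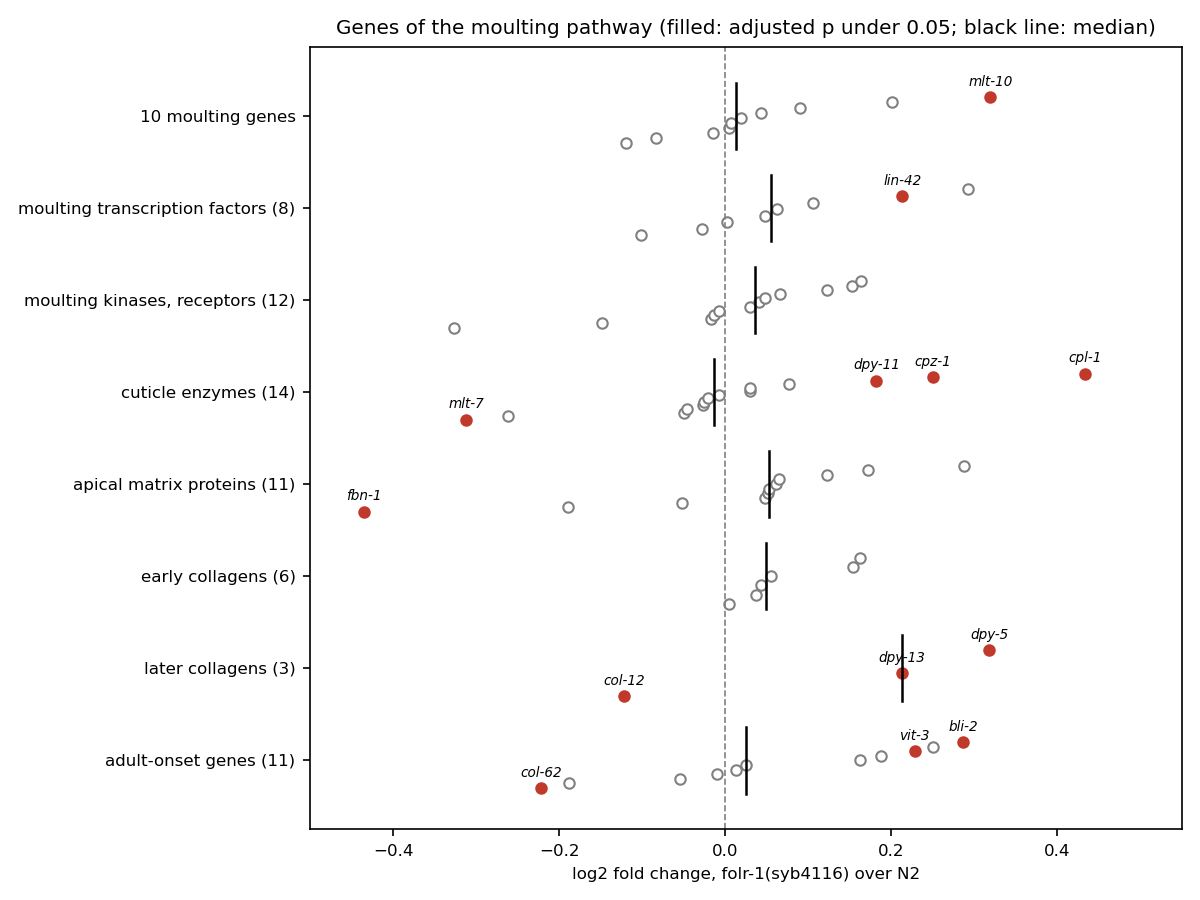
Log2 fold change, *folr-1(syb4116)* over N2, of the 10 moulting genes and of the genes of 7 further lists of the moulting pathway (number in brackets), with filled points for an adjusted p under 0.05 in the edgeR fit and a black line at each median. All points lie between -0.44 and 0.43, and every list except the later collagens holds more open than filled points.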

How the data were processed

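Poly-A RNA of 6 whole-animal samples, 3 of *folr-1(syb4116)* and 3 of N2, was sequenced. According to the submitters' processing notes, fastp, HISAT2 and featureCounts were used with WBcel235, and versions are not given in the sources used here. The authors deposited raw read counts per gene, without normalization, and FPKM values, called RPKM in their methods. The library protocol names a directional and a non-directional variant, and reads on overlapping genes of opposite strands could therefore be mixed. Symbols and positions came from the Ensembl 115 annotation of WBcel235 (46180 of 46661 IDs matched).

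Counts were filtered with filterByExpr, scaled by TMM and tested with edgeR 4.0.16 (glmQLFit, glmQLFTest) in R 4.3.3, with strain as the only term and Benjamini-Hochberg adjustment over 15432 genes at a threshold of 0.05. Chi-square over degrees of freedom between replicates was 3.17 to 8.17, above counting noise in each pair, so all were kept as separate samples. Log2 CPM used a prior count of 2. FPKM was used for levels and, with limma 3.58.1 and pseudocounts of 1 and 0.1, as an alternative. Others were DESeq2 1.42.0, limma-voom, relative log expression factors, other filters, a replicate block, a length correction, the stricter threshold of the methods, and each library left out in turn. In simulated counts edgeR recovered 200 of 200 genes changed by 2-fold, with 13 false calls among 15432 genes, which says nothing of smaller changes.

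The 10 genes and the further lists, compiled from gene symbols, were chosen with earlier results of these data known. Named genes were the 10, all called genes of the lists and up to 3 others a list with the most counts, *folr-1*, and the 5 genes nearest in profile. Others were named after their values were seen: *dpy-2*, *dpy-3* and *dpy-9* to spell out a list, *bed-3*, *bli-1*, *tsp-15*, the named markers, and neighbours that overlap. Figures were drawn with matplotlib 3.10.9.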

Additional observations from a re-analysis of the deposited data

How the results depend on the processing

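Counts are given for *folr-1(syb4116)* relative to N2. *nhr-23*, *nhr-25*, *nas-36*, *nas-37*, *noah-1* and *bli-5* passed in none of the 11 alternative fits and with no single library left out, with adjusted p-values of at least 0.329 there. *mlt-10* was lost with DESeq2 (adjusted p = 0.204 and 0.215) and with limma on FPKM (0.123 and 0.124). *qua-1* passed with no filter (adjusted p = 1.65e-04), a length correction (0.0240) and a length correction with the replicate block (0.0356). The edgeR fit with no filter gave *mlt-10* an adjusted p of 9.56e-12, beside 0.0168 in the main fit, and called 894 genes higher, beside 561. The p-value of *qua-1* there is therefore not comparable with that of the main fit. Among the 10 genes, DESeq2, limma on FPKM and the stricter threshold each gave 0 higher, and no filter and the length corrections gave 2.

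Over all genes, limma on FPKM called 309 and 310 higher and 274 and 268 lower, no filter 894 higher, and the stricter threshold 4 higher and 138 lower. Both DESeq2 fits called 0 adult-onset genes higher. Limma on FPKM called 0 intestine markers higher, and each length correction called 1. Limma on FPKM and the stricter threshold gave 0 for the higher transcription factors, the lower matrix proteins, the lower later collagens and the adult-onset genes in both directions. The stricter threshold also gave 0 for the enzymes in both directions and the higher later collagens. With no filter, 2 transcription factors, 2 kinases or receptors, 2 matrix proteins and 5 adult-onset genes were higher and 2 adult-onset genes lower. The length correction gave 1 higher kinase or receptor, 0 lower matrix proteins, with the replicate block also 0, and 2 lower adult-onset genes. The cause of these changes was not tested.

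With 1 library left out, calls over all genes ranged from 335 to 529 higher and from 337 to 470 lower. Higher counts were 0 to 2 for the 10 genes, 0 to 2 for transcription factors, 0 to 1 for kinases and receptors, 2 to 3 for enzymes and 0 to 2 for adult-onset genes. Lower counts were 0 to 1 for the 10 genes and for matrix proteins, 0 in each case for later collagens and 0 to 2 for adult-onset genes. Without replicate 2 of both strains, chosen after seeing the data, 239 genes were higher and 299 lower, with 0 higher and 1 lower of the 10, 0 transcription factors, 1 enzyme and 1 later collagen higher, and 0 later collagens and 0 adult-onset genes lower.

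The labels do not say whether the replicate numbers pair the samples. Same-numbered libraries correlated by -0.02, -0.05 and 0.01 in their deviations from the strain means, beside -0.02 to 0.04 for differently numbered ones. These values do not settle whether same-numbered samples were grown together. With the replicate block, 459 genes were higher and 406 lower, *mlt-10* remained called (adjusted p = 0.0494), and 0 matrix proteins and 0 later collagens were lower. With 3 libraries for each strain, the narrowest 95% interval of the log2 fold change among the 10 genes was that of *bli-4* (-0.20 to -0.04) and the widest that of *nhr-25* (-0.29 to 0.26).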

Other observations

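Of the 10 genes, the *nas*, *nhr* and hedgehog-related ones belong to larger families, in which calls were counted with the same edgeR fit. Of 32 tested *nas* genes, 5 fell in *folr-1(syb4116)* (15.6%, beside 3.32% of all tested genes) and 0 rose, all named after their values were seen. They were *nas-24* (log2 fold change -3.30), *nas-9* (-0.44) and *nas-11* (-0.33), and *nas-17* and *nas-19*, which had too few counts in *folr-1(syb4116)* for a fold change to be given. *nas-36* and *nas-37* were not among them, nor were the other astacin proteases of the lists, *nas-6*, *nas-7*, *nas-38* and *dpy-31*.

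Of 183 tested *nhr* genes, 3 were higher (1.64%, beside 3.64% of all tested genes) and 0 lower, *nhr-101* (0.31), *nhr-114* (0.22) and *nhr-68* (0.15). Of 42 tested hedgehog-related genes, 7 were higher (16.7%, beside 3.64% of all tested genes) and 0 lower. These shares are descriptions and were not tested. The leading genes among these were *grl-1* (0.61), *wrt-6* (0.49), *grl-27* (0.43), *wrt-2* (0.39) and *wrt-4* (0.37), again named after their values were seen, and *qua-1*, at 0.20 with an adjusted p of 0.0667, was not called.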
